A study of Mus musculus with 20 samples.

Results

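The DNA replication machinery described here is a list of 38 genes, chosen by name, that covers the steps from the marking of an origin to the sealing of new DNA. Of the 38 genes, 36 were found by symbol in the RNA table of 53440 genes and loci, and all 36 were among the 15428 genes tested. Cdt1 and Gins2 were not analysed here at the RNA level. All 38 genes had a row in the tables of H3K4me3 and H3K27me3, which hold 20462 genes.

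Eukaryotic chromosomes are copied from many origins. The origin recognition complex (ORC) binds an origin, and with Cdc6 and Cdt1 it loads the MCM2-7 ring, the motor of the replicative helicase, before S phase begins. In S phase Cdc45 and the GINS complex join MCM2-7 to form the active helicase, RPA coats the single strands, and primase with DNA polymerase alpha starts each new strand. The clamp loader RFC then places the PCNA ring that tethers the polymerases, and Fen1 and Lig1 process and join the Okazaki fragments of the lagging strand. Mouse ES cells have a short G1 phase and divide fast, and many replication genes are targets of E2F factors in cycling cells.

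The cells were TL1 mouse embryonic stem (ES) cells, grown with serum and LIF, the cytokine that maintains them, and embryoid bodies (EB), which differentiate from them after LIF is withdrawn. The 4 groups were knockout EB (p150 depleted with CRISPR/Cas9; Chaf1a encodes this subunit of CAF-1, which deposits histones behind the fork), wild type EB, knockout ES and wild type ES. The labels do not give the number of clones and state no age of the EB (the ChIP titles have a 7 before EB, with no unit), nor whether replicates were separate cultures, so the spread behind each p-value is that between libraries and may be technical only. RNA was sequenced in 2 libraries per group, and each histone mark in 1 library per group.

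The RNA values are FPKM, fragments scaled by transcript length and by the mapped fragments of the library, so levels can be compared between genes. FPKM totals were 641692 to 781913 per library, no counts were given and the depth is unknown. Chaf1a stood at 31.6 and 35.0 FPKM in knockout EB, against 31.7 and 32.1 FPKM in wild type EB. Among ES libraries its level was 48.1 and 37.95 FPKM in knockout and 49.5 and 43.0 FPKM in wild type. A small CRISPR lesion can leave the FPKM of a gene as it was, so the genotype of each library is taken from its label alone. Defining markers of several cell types were checked. The summed level of 12 pluripotent cell markers was 5671 to 7990 FPKM in knockout EB, 335 to 591 FPKM in wild type EB, 6391 to 6585 FPKM in knockout ES and 6772 to 7133 FPKM in wild type ES. None of the 12 was at 0 in both libraries of any group.

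The median replication gene was among the abundant transcripts in every group. The median member had a percentile rank among tested genes of 84.9 to 86.1 in the knockout EB libraries and 78.6 to 78.7 in wild type EB. In ES libraries the rank was 85.9 to 86.3 in knockout and 85.8 to 86.1 in wild type. Summed over the 36 genes, replication transcripts took 0.304% and 0.292% of all FPKM in knockout EB, 0.226% and 0.236% in wild type EB, 0.378% and 0.368% in knockout ES, and 0.377% and 0.387% in wild type ES. The wild type EB libraries were thus the lowest, and the knockout EB libraries lay between them and the ES libraries. Mcm7 or Pcna had the highest group mean in each group. Mcm7 averaged 233 FPKM in knockout EB, 122 in wild type EB, 231 in knockout ES and 215 in wild type ES. Gins3 was the lowest member in each group. It averaged 6.51 FPKM in knockout EB, 7.40 in wild type EB, 7.70 in knockout ES and 7.89 in wild type ES. Its percentile rank among tested genes was between 41.1 and 53.2 in every library.

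**Figure D1:**
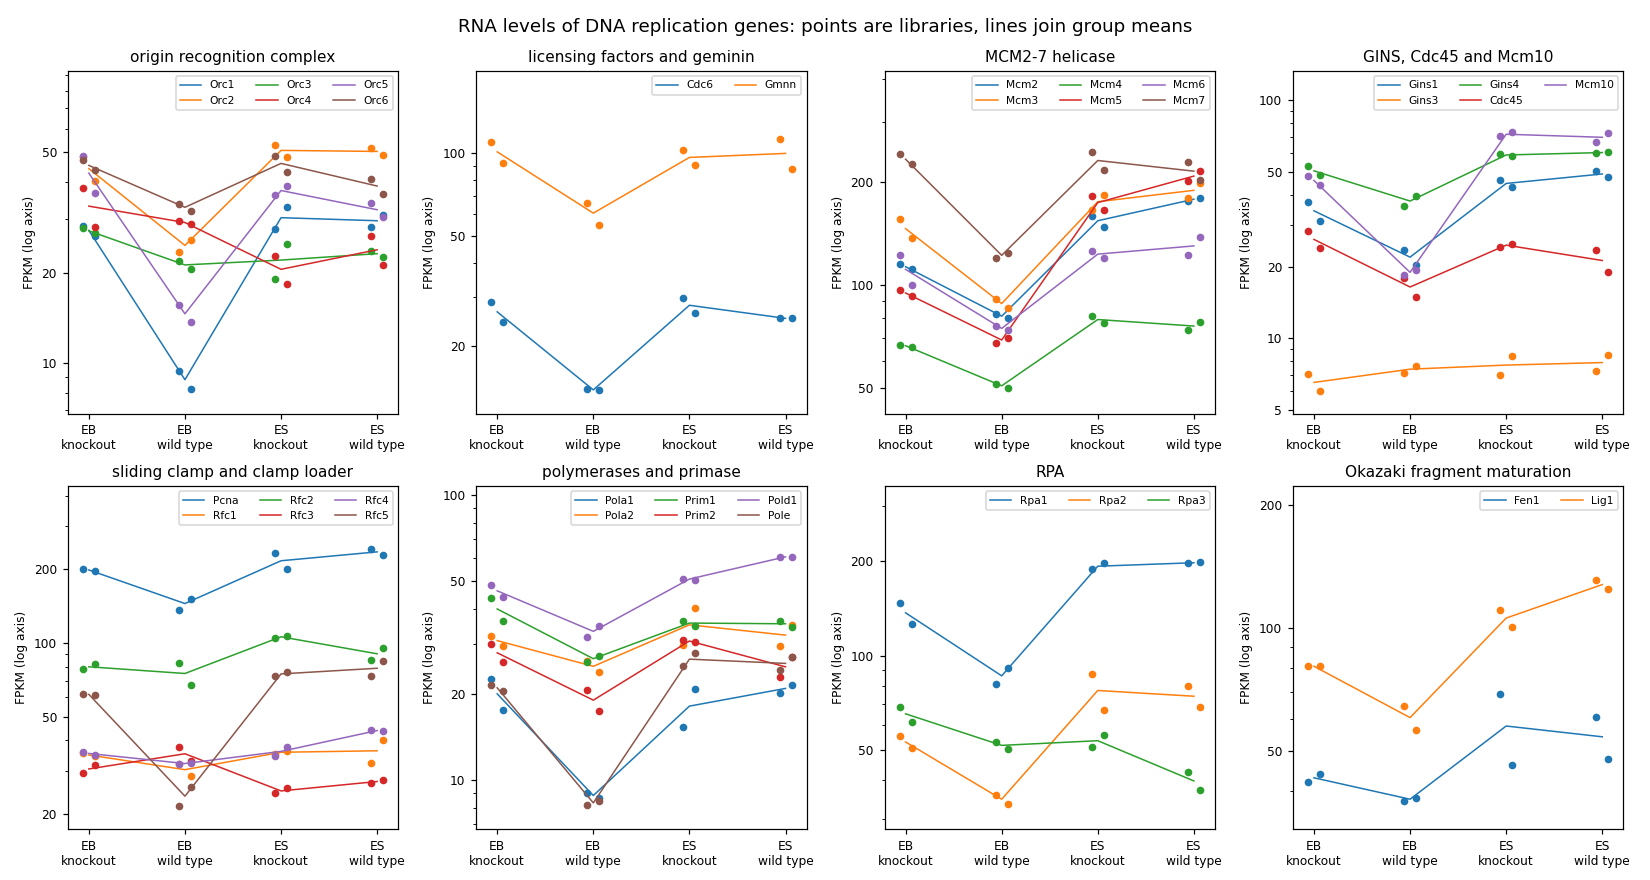
FPKM (log axis) of the 36 measured replication genes in knockout EB, wild type EB, knockout ES and wild type ES, in panels by complex. Points are single libraries, 2 per group, and lines join the group means. Most lines dip at wild type EB, steeply for Orc1, Orc5, Mcm10, Rfc5, Pola1 and Pole, while Orc4, Gins3 and Rfc3 do not dip there.

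Knockout EB had more replication RNA than wild type EB. Of the 36 genes, 27 were higher in knockout than in wild type EB and 0 were lower. By step, the share called higher ran from 33.3% for the clamp and its loader to 100% for MCM2-7. For Okazaki fragment maturation it rested on 1 gene, Lig1, whose call was lost in several of the fits given below. Between the EB groups, a gene that rose is one higher in knockout than in wild type EB, not one that increased from ES to EB. The rises ran from 0.33 on the log2(FPKM + 1) scale for Rpa3 to 1.54 for Orc1, and the median over all 36 genes was 0.50. Over all 15428 tested genes the median was -0.06, with 20.0% called higher and 25.9% called lower. Calls here are those of limma at a Benjamini-Hochberg adjusted p under 0.05 over all tested genes. At an unadjusted p under 0.05, 28 members were higher and 0 were lower, against 23.4% and 30.1% of all tested genes. Both knockout EB libraries lay above both wild type EB libraries for 32 members (34.8% of all tested genes) and below for 2, Gins3 and Rfc3 (42.2% of all tested genes). The fold of group means was 3.12 for Orc1, 2.92 for Orc5, 2.61 for Rfc5, 2.53 for Pole, 2.44 for Mcm10 and 2.27 for Pola1, the 6 largest.

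The count depended on the libraries and on the filter. Without EB knockout replicate 1, 14 members were called higher, and the calls of Cdc45, Gins1, Gins4, Gmnn, Lig1, Mcm4, Mcm6, Orc6, Pcna, Pold1, Prim2, Rpa2 and Rpa3 were lost. The differences of these 13 genes were then 0.25 to 0.60, against 0.33 to 0.73 with all libraries, and the lone knockout EB library was assumed to vary like the other groups. When EB wild type replicate 2 was left out, Cdc45, Gins1, Gmnn, Lig1, Orc6, Prim2, Rpa2 and Rpa3 were not called. Without EB wild type replicate 1 this held for Gins4, Pcna, Rpa2 and Rpa3, and without EB knockout replicate 2 for Lig1 and Rpa3. The call of Rpa3 was lost whichever of the 8 libraries was left out. The other 14 calls were kept in all 8 such fits: Orc1, Orc2, Orc5, Cdc6, Mcm2, Mcm3, Mcm5, Mcm7, Mcm10, Rfc5, Pola1, Prim1, Pole and Rpa1. Scaling all libraries to the same FPKM total moved the median of all genes to -0.24 and that of the members to 0.30, with 18 members called higher and 1, Rfc3, called lower. The calls lost there were those of Orc6, Mcm4, Mcm5, Gins4, Pcna, Prim2, Pold1, Rpa3 and Lig1. With no filter on low FPKM 18 members were also called higher, and the calls of Orc6, Gmnn, Mcm6, Cdc45, Pcna, Prim2, Rpa2, Rpa3 and Lig1 were lost.

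Cell type markers differed between the same libraries. All 12 pluripotent cell markers were higher in knockout EB. The shares over all tested genes were 20.0% higher and 25.9% lower. Of the other lists, 10 of 10 cardiomyocyte, 9 of 10 blood and endothelium, 8 of 9 fibroblast, 5 of 9 tested visceral endoderm and 4 of 5 tested neural markers were lower, and 1 fibroblast and 1 visceral endoderm marker were higher. Summed cardiomyocyte markers came to 31.3 to 281 FPKM in knockout EB and 3431 to 4703 in wild type EB. For blood and endothelium the sums were 73.8 to 95.0 FPKM in knockout EB and 725 to 2783 in wild type EB. Fibroblast markers summed to 180 to 252 FPKM in knockout EB and 939 to 1200 in wild type EB, visceral endoderm markers to 64.4 to 163 against 427 to 463, and neural markers to 8.92 to 16.9 against 70.0 to 81.7. No marker was at 0 in both libraries of a group. The part of cell composition in the replication gene differences was not tested. In these bulk samples fewer cells of a type and less RNA per cell cannot be told apart.

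**Figure D2:**
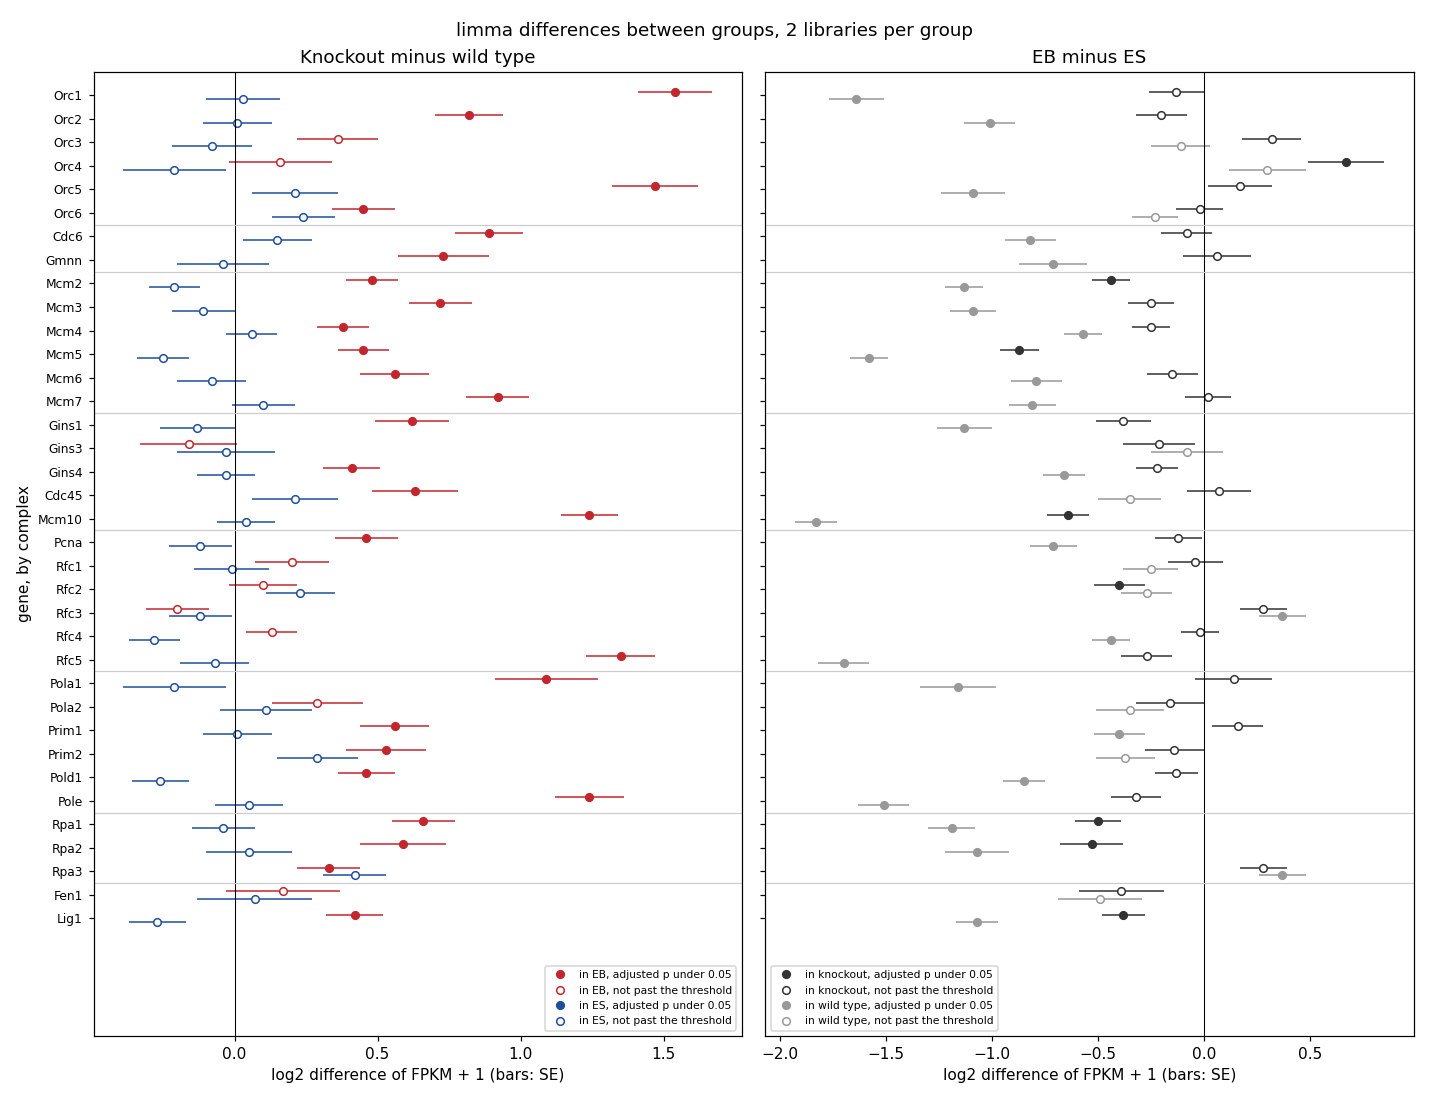
Differences of log2(FPKM + 1) with their SE for each gene, by complex from ORC at the top to Okazaki fragment maturation at the bottom, with knockout minus wild type on the left (EB above ES) and EB minus ES on the right (knockout above wild type). Filled points passed an adjusted p of 0.05 in limma. Of 36 genes, 27 points are filled for EB on the left and 0 for ES.

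Promoters of 5 members that hold a match to an E2F motif are shown. Each had the smallest limma adjusted p, for knockout against wild type EB, among the measured genes of its complex with a match. They were thus picked on the result of that comparison, and all 5 were called higher in it. The uncalled genes with a match, Gins3, Rfc3 and Orc3, are not shown. RefSeq windows of 300 bases, from 250 before to 50 after the annotated start, were matched by symbol for 30 of the 38 genes. E2F motifs were searched as TTTCCCGC, TTTCGCGC, TTTGGCGC and TTTGCCGC on both strands. They were found in 13 of the 30 member genes (43.3%), against 704 of 27025 genes with a window and 465 of the 9786 such genes that were tested here (4.75%). The 13 genes were Cdc6, Cdt1, Gins3, Lig1, Mcm3, Mcm5, Mcm6, Mcm7, Orc1, Orc3, Pola1, Pold1 and Rfc3. Of the 12 measured genes with a match, 9 rose in knockout EB, and of the 17 measured genes with a window and no match, 12 did. Both Gins3 and Rfc3, whose libraries were all lower in knockout EB, had a match. CCAAT, the box bound by NF-Y, was found in 20 of 30 member genes (66.7%), against 41.1% of all genes with a window and 43.4% of those tested. CHR elements (TTTGAA or TTCGAA), known from genes expressed in G2 and M phase, were found in 6 of 30 (20.0%), against 21.7%. A match describes the letters only.

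The windows lie at chr4:108579204-108579503 (plus strand) for Orc1, chr11:98907901-98908200 (plus) for Cdc6, chr5:138171834-138172133 (minus) for Mcm7, chrX:93632106-93632405 (minus) for Pola1 and chr7:13278576-13278875 (plus) for Lig1, all in GRCm38.p6. Mcm7 has 2 windows in the table and Lig1 has 3, and 1 of each is shown. Each is written 5′ to 3′ on the strand of the gene, with the E2F match in capitals.
Orc1: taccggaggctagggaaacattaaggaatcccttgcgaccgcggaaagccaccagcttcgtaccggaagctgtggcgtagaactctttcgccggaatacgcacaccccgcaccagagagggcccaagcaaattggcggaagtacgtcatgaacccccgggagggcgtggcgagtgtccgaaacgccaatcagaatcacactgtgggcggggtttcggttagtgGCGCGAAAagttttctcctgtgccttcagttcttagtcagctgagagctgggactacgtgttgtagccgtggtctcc
Cdc6: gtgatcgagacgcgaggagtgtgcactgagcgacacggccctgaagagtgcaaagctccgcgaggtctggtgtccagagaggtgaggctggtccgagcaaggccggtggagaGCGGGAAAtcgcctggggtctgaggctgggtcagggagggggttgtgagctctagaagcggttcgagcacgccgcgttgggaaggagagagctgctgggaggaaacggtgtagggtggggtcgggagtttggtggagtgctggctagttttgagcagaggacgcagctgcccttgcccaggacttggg
Mcm7: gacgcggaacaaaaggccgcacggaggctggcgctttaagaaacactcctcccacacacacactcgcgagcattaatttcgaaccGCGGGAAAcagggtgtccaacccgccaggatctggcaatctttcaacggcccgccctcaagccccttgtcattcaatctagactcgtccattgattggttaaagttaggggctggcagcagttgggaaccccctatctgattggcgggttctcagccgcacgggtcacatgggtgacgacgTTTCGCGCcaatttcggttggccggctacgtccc
Pola1: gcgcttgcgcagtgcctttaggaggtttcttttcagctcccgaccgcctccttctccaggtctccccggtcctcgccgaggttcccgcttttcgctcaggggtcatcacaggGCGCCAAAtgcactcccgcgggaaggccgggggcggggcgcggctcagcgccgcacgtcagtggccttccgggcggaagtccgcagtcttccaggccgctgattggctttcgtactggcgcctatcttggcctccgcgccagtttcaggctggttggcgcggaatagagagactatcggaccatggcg
Lig1: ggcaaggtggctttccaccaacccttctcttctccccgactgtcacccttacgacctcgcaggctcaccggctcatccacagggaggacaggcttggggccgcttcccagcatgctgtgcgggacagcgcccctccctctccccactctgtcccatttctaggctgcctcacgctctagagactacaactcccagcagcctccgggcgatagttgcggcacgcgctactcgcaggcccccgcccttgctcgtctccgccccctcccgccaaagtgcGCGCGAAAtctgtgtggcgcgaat
The match begins 27 bases before the start in Orc1 and 138 bases before it in Cdc6 and in Pola1. Mcm7 has matches 165 bases before and 16 bases after the start, and 1 of them shares bases with another searched motif. The match of Lig1 lies 26 bases after the start. All but the second match of Mcm7 read as the motif on the opposite strand.

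ORC, the complex that marks origins, had 4 of 6 genes higher in knockout EB, with a median of 0.63. Beside this count and those of the complexes below, 20.0% of all tested genes were called higher and 25.9% lower. Orc1 (ENSMUSG00000028587.18, mm10 chromosome 4, 108579423 to 108614833) encodes the largest subunit, whose level oscillates with the cell cycle in many mammalian cells. It had 28.6 and 26.5 FPKM in knockout EB, 9.44 and 8.22 in wild type EB, 27.8 and 33.1 in knockout ES, and 28.3 and 31.0 in wild type ES. The wild type EB libraries stood alone at the low end, and the other 6 libraries overlapped. Orc1 rose by 1.54 ± 0.13 (SE, limma adjusted p = 0.000440) in knockout EB. Orc5, another subunit with an ATPase fold, had 48.5 and 36.8 FPKM in knockout EB, 15.6 and 13.7 in wild type EB, 36.2 and 38.6 in knockout ES, and 34.0 and 30.5 in wild type ES. It showed the same low wild type EB libraries and rose by 1.47 ± 0.15 (adjusted p = 0.000757 in limma).

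Orc2 rose by 0.82 ± 0.12 and Orc6 by 0.45 ± 0.11 (limma adjusted p = 0.00235 and 0.0152), although the Orc6 call was lost at the same FPKM total, with no filter, and when replicate 1 of knockout EB or replicate 2 of wild type EB was left out. Orc3 and Orc4, which sit in the core of the complex, were not called. Orc3 had 28.0 and 27.1 FPKM in knockout EB, 21.9 and 20.6 in wild type EB, 19.1 and 24.9 in knockout ES, and 23.5 and 22.6 in wild type ES. Its EB libraries did not overlap, and its difference was 0.36 ± 0.14 (limma adjusted p = 0.0731), a value that passed the threshold after quantile normalization, with the EB groups alone, or without either knockout ES library. Orc4 had 38.1 and 28.4 FPKM in knockout EB, 29.7 and 28.9 in wild type EB, 22.7 and 18.3 in knockout ES, and 26.4 and 21.2 in wild type ES. The EB libraries of Orc4 overlapped, and its difference of 0.16 ± 0.18 (limma adjusted p = 0.505) changed sign at the same FPKM total and without EB knockout replicate 1. The ratio of Orc1 to Orc4 FPKM, chosen after the values were seen, was 0.751 and 0.934 in knockout EB, 0.318 and 0.284 in wild type EB, 1.23 and 1.81 in knockout ES, and 1.07 and 1.46 in wild type ES. The relative level of these subunits of 1 complex was thus lowest in wild type EB.

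The licensing genes Cdc6 and Gmnn both rose. Cdc6, the ATPase that loads MCM2-7 with ORC, had 28.7 and 24.4 FPKM in knockout EB, 13.9 and 13.8 in wild type EB, 29.8 and 26.3 in knockout ES, and 25.2 and 25.1 in wild type ES. Gmnn encodes geminin, the inhibitor of Cdt1 that prevents a second round of licensing, and had 109.6 and 91.9 FPKM in knockout EB, 66.0 and 55.0 in wild type EB, 103 and 90.3 in knockout ES, and 112 and 87.3 in wild type ES. In both genes the EB groups were separate and the knockout EB values lay within or beside the ES values. The rise was 0.89 ± 0.12 for Cdc6 and 0.73 ± 0.16 for Gmnn (limma adjusted p = 0.00180 and 0.0106). The Gmnn call was lost without EB knockout replicate 1 or without EB wild type replicate 2.

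All 6 subunits of the MCM2-7 ring were higher in knockout EB than in wild type EB, by 0.38 to 0.92. Mcm7 (ENSMUSG00000029730.16, mm10 chromosome 5, 138164583 to 138172422) had 241 and 226 FPKM in knockout EB, 120.5 and 124 in wild type EB, 244 and 217 in knockout ES, and 228 and 202 in wild type ES. Mcm4 had 66.9 and 65.9 FPKM in knockout EB, 51.4 and 50.0 in wild type EB, 81.2 and 77.2 in knockout ES, and 73.9 and 77.7 in wild type ES. Mcm7 in knockout EB overlapped both ES groups, whereas Mcm4 in knockout EB lay below all ES libraries. The rise was 0.92 ± 0.11 for Mcm7 and 0.38 ± 0.09 for Mcm4 (limma adjusted p = 0.00100 and 0.0105). Mcm3 rose by 0.72, Mcm6 by 0.56, Mcm2 by 0.48 and Mcm5 by 0.45. The calls of Mcm4 and Mcm6 were lost without EB knockout replicate 1, and those of Mcm4 and Mcm5 at the same FPKM total.

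Equal parts of the ring were not matched by equal RNA. The subunits form a ring with 1 copy of each, yet the highest subunit had 3.60 and 3.43 times the FPKM of the lowest in knockout EB, 2.35 and 2.49 times in wild type EB, 3.00 and 2.81 times in knockout ES, and 3.09 and 2.77 times in wild type ES. Mcm4 was the lowest subunit in all 8 libraries, and Mcm7 the highest in all but 1 wild type ES library, where it was Mcm5. Mcm5 over Mcm4, chosen after the values were seen, was 1.44 and 1.41 in knockout EB, 1.32 and 1.40 in wild type EB, 2.24 and 2.15 in knockout ES, and 2.71 and 2.77 in wild type ES. Here both EB groups lay below both ES groups. Mcm7 over Mcm4 was instead highest in knockout EB, at 3.60 and 3.43, against 2.35 and 2.49 in wild type EB.

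Of the helicase activators, 4 of 5 measured genes rose. Mcm10, which binds the active helicase and helps origins to fire (ENSMUSG00000026669.14, mm10 chromosome 2, 4989714 to 5012791), had 47.9 and 44.1 FPKM in knockout EB, 18.4 and 19.3 in wild type EB, 70.5 and 73.4 in knockout ES, and 66.5 and 73.2 in wild type ES. Its groups stood in 3 tiers, with ES above knockout EB and knockout EB above wild type EB. Mcm10 rose by 1.24 ± 0.10 (limma adjusted p = 0.000369), the smallest adjusted p of the 36 genes. Cdc45, the helicase cofactor, rose by 0.63 ± 0.15, Gins1 by 0.62 ± 0.13 and Gins4 by 0.41 ± 0.10 (limma adjusted p = 0.0139, 0.00788 and 0.0124), and each of these calls was lost without EB knockout replicate 1. The Cdc45 and Gins1 calls were also lost without EB wild type replicate 2, and the Gins4 call without EB wild type replicate 1 and at the same FPKM total.

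Gins3, a further subunit of the GINS complex, was not called. Its levels were 7.03 and 5.99 FPKM in knockout EB, 7.14 and 7.66 in wild type EB, 6.98 and 8.42 in knockout ES, and 7.25 and 8.53 in wild type ES. The 4 groups lay close together, with the knockout EB libraries just below wild type EB. The difference was -0.16 ± 0.17 (limma adjusted p = 0.451), which changed sign after quantile normalization. Gins1 over Gins3, chosen after the values were seen, was 5.33 and 5.18 in knockout EB, 3.29 and 2.64 in wild type EB, 6.65 and 5.10 in knockout ES, and 6.95 and 5.60 in wild type ES.

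Of the clamp and its loader, Pcna and Rfc5 rose, and Rfc1, Rfc2, Rfc3 and Rfc4 were not called. The share higher was 33.3%, at a median of 0.17, where 20.0% of all tested genes were called higher. Rfc5 (ENSMUSG00000029363.14, mm10 chromosome 5, 117378103 to 117389047), a small subunit of the loader, had 62.1 and 61.0 FPKM in knockout EB, 21.5 and 25.7 in wild type EB, 73.2 and 76.3 in knockout ES, and 73.4 and 84.2 in wild type ES. The wild type EB libraries were far below the other 6, and Rfc5 rose by 1.35 ± 0.12 (limma adjusted p = 0.000461). Pcna, the sliding clamp, had 200.3 and 197 FPKM in knockout EB, 137 and 152 in wild type EB, 234 and 201 in knockout ES, and 243 and 229.8 in wild type ES. It rose by 0.46 ± 0.11 (limma adjusted p = 0.0125), a call that leaving out replicate 1 of either EB group ended, as did scaling to the same FPKM total.

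Rfc2 and Rfc3 are small subunits of the loader too. Rfc2 had 78.2 and 81.7 FPKM in knockout EB, 83.0 and 67.1 in wild type EB, 105 and 107 in knockout ES, and 84.9 and 95.7 in wild type ES. Rfc3 had 29.4 and 31.6 FPKM in knockout EB, 37.6 and 32.9 in wild type EB, 24.3 and 25.4 in knockout ES, and 26.6 and 27.5 in wild type ES. The EB groups overlapped for Rfc2, while for Rfc3 knockout EB lay below wild type EB. The differences were 0.10 ± 0.12 for Rfc2 and -0.20 ± 0.11 for Rfc3 (limma adjusted p = 0.551 and 0.172). Rfc2 changed sign at the same FPKM total and without EB wild type replicate 2, and at the same FPKM total Rfc3 was called lower.

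Rfc1, the large subunit, had 35.3 and 34.4 FPKM in knockout EB, 31.9 and 28.6 in wild type EB, 35.2 and 36.2 in knockout ES, and 32.3 and 40.1 in wild type ES. Rfc4 had 35.8 and 34.9 FPKM in knockout EB, 32.0 and 32.2 in wild type EB, 34.5 and 37.4 in knockout ES, and 44.0 and 43.6 in wild type ES. Knockout EB lay above wild type EB by a small margin in both genes. The differences were 0.20 ± 0.13 for Rfc1 and 0.13 ± 0.09 for Rfc4 (limma adjusted p = 0.244 and 0.279), and both changed sign at the same FPKM total. Rfc5 over Rfc3, chosen after the values were seen, was 2.11 and 1.93 in knockout EB, 0.572 and 0.780 in wild type EB, 3.01 and 3.01 in knockout ES, and 2.75 and 3.07 in wild type ES. Wild type EB was thus the only group in which Rfc3 exceeded Rfc5.

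Of the polymerase genes, 5 of 6 rose. Pole (ENSMUSG00000007080.14, mm10 chromosome 5, 110286306 to 110337474), the catalytic subunit of the leading strand polymerase, had 21.6 and 20.6 FPKM in knockout EB, 8.20 and 8.45 in wild type EB, 25.2 and 28.0 in knockout ES, and 24.3 and 26.96 in wild type ES. Pola1, the catalytic subunit of polymerase alpha, had 22.6 and 17.6 FPKM in knockout EB, 8.999 and 8.69 in wild type EB, 15.4 and 20.9 in knockout ES, and 20.3 and 21.6 in wild type ES. Both genes were low in wild type EB alone. Pole rose by 1.24 ± 0.12 and Pola1 by 1.09 ± 0.18 (limma adjusted p = 0.000531 and 0.00326). The smaller primase subunit Prim1 rose by 0.56 ± 0.12, its partner Prim2 by 0.53 ± 0.14, and Pold1, the catalytic subunit of the lagging strand polymerase, by 0.46 ± 0.10. The Prim2 and Pold1 calls were lost without EB knockout replicate 1 and at the same FPKM total, and the Prim2 call also without EB wild type replicate 2.

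Pola2, the regulatory subunit of polymerase alpha, was not called. It had 32.2 and 29.5 FPKM in knockout EB, 26.2 and 23.9 in wild type EB, 29.9 and 40.2 in knockout ES, and 29.5 and 35.1 in wild type ES. The EB libraries did not overlap, and the difference was 0.29 ± 0.16 (limma adjusted p = 0.190).

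All 3 subunits of RPA, the binder of single-stranded DNA, rose. Rpa1, the large subunit, had 147 and 126 FPKM in knockout EB, 81.4 and 91.1 in wild type EB, 189 and 197 in knockout ES, and 197 and 199 in wild type ES. Rpa3, the small subunit, had 68.8 and 61.6 FPKM in knockout EB, 52.9 and 50.4 in wild type EB, 51.1 and 55.9 in knockout ES, and 42.4 and 37.2 in wild type ES. The groups were thus ordered differently, with ES the highest for Rpa1 and knockout EB the highest for Rpa3. Rpa1 rose by 0.66 ± 0.11, Rpa2 by 0.59 ± 0.15 and Rpa3 by 0.33 ± 0.11 (limma adjusted p = 0.00327, 0.0154 and 0.0479). The Rpa3 call was lost without any 1 of the 8 libraries and at the same FPKM total, and that of Rpa2 without EB knockout replicate 1 or either wild type EB library.

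Lig1, the ligase that joins Okazaki fragments, rose, and Fen1, the nuclease that trims their ends, was not called. Lig1 had 80.9 and 80.8 FPKM in knockout EB, 64.7 and 56.4 in wild type EB, 111 and 101 in knockout ES, and 131 and 125 in wild type ES. Fen1 had 42.1 and 44.0 FPKM in knockout EB, 37.8 and 38.5 in wild type EB, 69.0 and 46.4 in knockout ES, and 60.8 and 47.8 in wild type ES. In both genes knockout EB lay above wild type EB and below ES, and the ES replicates of Fen1 differed widely. The difference was 0.42 ± 0.10 for Lig1 and 0.17 ± 0.20 for Fen1 (limma adjusted p = 0.0151 and 0.514). The Lig1 call was lost without either knockout EB library, without EB wild type replicate 2 and at the same FPKM total, where Fen1 changed sign.

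In ES cells the same genes were not called between genotypes. By limma, 0 of 36 members were higher and 0 lower, with a median of -0.02 and a range from -0.28 to 0.42. Of all tested genes 0.421% were called higher and 0.0778% lower, so few calls were made in this comparison. At an unadjusted p under 0.05, 1 member was higher and 5 were lower, against 9.26% and 4.39% of all tested genes. The higher one was Rpa3, with 51.1 and 55.9 FPKM in knockout ES and 42.4 and 37.2 in wild type ES, a difference of 0.42 ± 0.11 (limma adjusted p = 0.165). The lower ones were Rfc4, Lig1, Pold1, Mcm5 and Mcm2, with differences of -0.28, -0.27, -0.26, -0.25 and -0.21 and limma adjusted p of 0.251, 0.307, 0.307, 0.286 and 0.343.

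The genotype difference itself differed between the stages. It was larger in EB than in ES for 21 of 36 members and smaller for 0, where 12.7% and 18.6% of all tested genes were called. The median of this difference of differences was 0.61 over the members and -0.10 over all tested genes, against 0.39 and -0.29 at the same FPKM total and 0.60 and 0.05 after quantile normalization. It was 1.51 ± 0.19 for Orc1, 1.42 ± 0.17 for Rfc5, 1.30 ± 0.25 for Pola1, 1.26 ± 0.22 for Orc5, 1.20 ± 0.14 for Mcm10 and 1.19 ± 0.16 for Pole (limma adjusted p from 0.00328 to 0.0109). Without EB knockout replicate 1 or without ES wild type replicate 1 the count was 13, and with no filter on low FPKM it was 8.

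From ES to EB in wild type cells most replication genes fell. Of 36 members 24 fell and 2, Rfc3 and Rpa3, rose, where 24.8% of all tested genes fell and 36.1% rose. The median was -0.75 over the members and 0.12 over all tested genes, and after quantile normalization these medians were -0.62 and -0.11. All 6 MCM2-7 genes fell, from -1.58 ± 0.09 for Mcm5 to -0.57 ± 0.09 for Mcm4. Mcm5 had 67.8 and 70.1 FPKM in wild type EB and 201 and 215 in wild type ES, with no overlap. The deepest falls of the list were Mcm10 at -1.83 ± 0.10, Rfc5 at -1.70 ± 0.12, Orc1 at -1.64 ± 0.13, Mcm5, and Pole at -1.51 ± 0.12 (limma adjusted p from 0.000032 to 0.000081).

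Members of 1 complex did not fall alike in wild type EB. In ORC, Orc1, Orc2 and Orc5 fell by 1.64, 1.01 and 1.09, while Orc3 was at -0.11, Orc6 at -0.23 and Orc4 at 0.30, none of them called. In RPA, Rpa1 and Rpa2 fell by 1.19 and 1.07, and Rpa3 rose by 0.37 ± 0.11 (limma adjusted p = 0.0233). In the clamp loader, Rfc5 fell by 1.70 and Rfc4 by 0.44, and Rfc3 rose by 0.37 ± 0.11 (limma adjusted p = 0.0217). The Rpa3 rise was lost without either wild type EB library or without ES wild type replicate 2, and the Rfc3 rise without EB wild type replicate 1 or either wild type ES library. Prim1 fell by 0.40 ± 0.12, a call lost without any 1 of the 4 wild type libraries, and the fall of Gmnn, of 0.71 ± 0.16, was not called without EB wild type replicate 2. The comparisons of knockout with wild type EB and of wild type EB with wild type ES share the wild type EB libraries, so a low value there enters both.

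From ES to EB in knockout cells few members were called. The count was 7 lower and 1 higher of 36, where 12.0% and 17.1% of all tested genes were called, and the median was -0.14, against 0.07 over all tested genes. Mcm5 fell by 0.87 ± 0.09, Mcm10 by 0.64 ± 0.10, Rpa2 by 0.53 ± 0.15, Rpa1 by 0.50 ± 0.11, Mcm2 by 0.44 ± 0.09, Rfc2 by 0.40 ± 0.12 and Lig1 by 0.38 ± 0.10. Orc4 rose by 0.67 ± 0.18 (limma adjusted p = 0.0342). The calls of Mcm5 and Mcm10 were the ones kept whichever library was left out. Without EB knockout replicate 2 or without ES knockout replicate 1, 2 members were called lower, and without EB knockout replicate 1, 4 were. The Orc4 call was lost without EB knockout replicate 1, either wild type EB library or either knockout ES library. At the same FPKM total 11 were lower, and with only these 2 groups in the fit 3 were lower and 0 higher.

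Other genes of DNA synthesis, from lists drawn up with earlier results of these data known, were counted between the EB groups. Of 16 origin firing and fork factors 9 (56.2%) were higher and 0 lower, at a median of 0.48. Of all tested genes 20.0% were higher and 25.9% lower. Ticrr, which with Mtbp recruits Cdc45, had 18.9 and 16.3 FPKM in knockout EB and 5.50 and 6.98 in wild type EB and rose by 1.37 ± 0.15. Dbf4, the activator of the Cdc7 kinase, rose by 0.96, the fork protector Tipin by 0.79 and the nuclease and helicase Dna2 by 0.69. Of 6 accessory polymerase subunits 2 (33.3%) rose, Pole2 by 0.79 and Pole4 by 0.76, and 0 fell. Of 5 alternative clamp loader and unloader genes, Atad5 rose by 0.94 and Chtf18 by 0.62, and Chtf8 fell by 0.69. Neither Mcm8 nor Mcm9, helicase paralogs with a role in recombination, was called by limma, with 0 at an unadjusted p under 0.05.

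Nucleotide supply moved with the same libraries. Of 12 such genes, 8 (66.7%) were called higher and 0 lower, at a median of 0.58. Of all tested genes 20.0% were called higher and 25.9% lower. Shmt1, a folate enzyme that feeds thymidylate synthesis, had 75.4 and 74.4 FPKM in knockout EB and 25.4 and 24.2 in wild type EB, and rose by 1.56 ± 0.10. Dut, which removes dUTP, rose by 1.12, the pyrimidine enzyme Umps by 0.91, and Rrm2, a subunit of ribonucleotide reductase, by 0.69. Of 8 replication-coupled chromatin factors 5 (62.5%) rose and 0 fell. The methylation reader Uhrf1 rose by 0.59, the histone chaperone Asf1b by 0.89, the CAF-1 subunit Chaf1b by 0.56 and the histone carrier Nasp by 0.66.

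Of 21 genes of S phase kinases, cyclins and the E2F-RB pathway, 4 (19.0%) were higher and 3 (14.3%) lower, at a median of 0.01. These shares are near or below the 20.0% and 25.9% of all tested genes. Ccne1, encoding cyclin E1, had 64.3 and 68.1 FPKM in knockout EB, 20.7 and 21.0 in wild type EB, 197 and 145 in knockout ES, and 151 and 127 in wild type ES, and rose by 1.62 ± 0.16 (limma adjusted p = 0.000608). Cdkn1c, encoding the kinase inhibitor p57, had 107 and 98.0 FPKM in knockout EB, 587 and 581 in wild type EB, 27.9 and 51.8 in knockout ES, and 17.8 and 31.1 in wild type ES, and fell by 2.50 ± 0.32 (limma adjusted p = 0.00144). The repressor E2f6 fell by 1.05, and the phosphatase Cdc25a rose by 0.61. Among 15 mitosis genes 12 were higher and 0 lower, at a median of 0.55. Cyclin B1 (Ccnb1) rose by 1.03, the checkpoint kinase gene Bub1 by 0.99, the kinesin Kif11 by 0.67 and Cdc20, an activator of the anaphase-promoting complex, by 0.60.

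**Figure D3:**
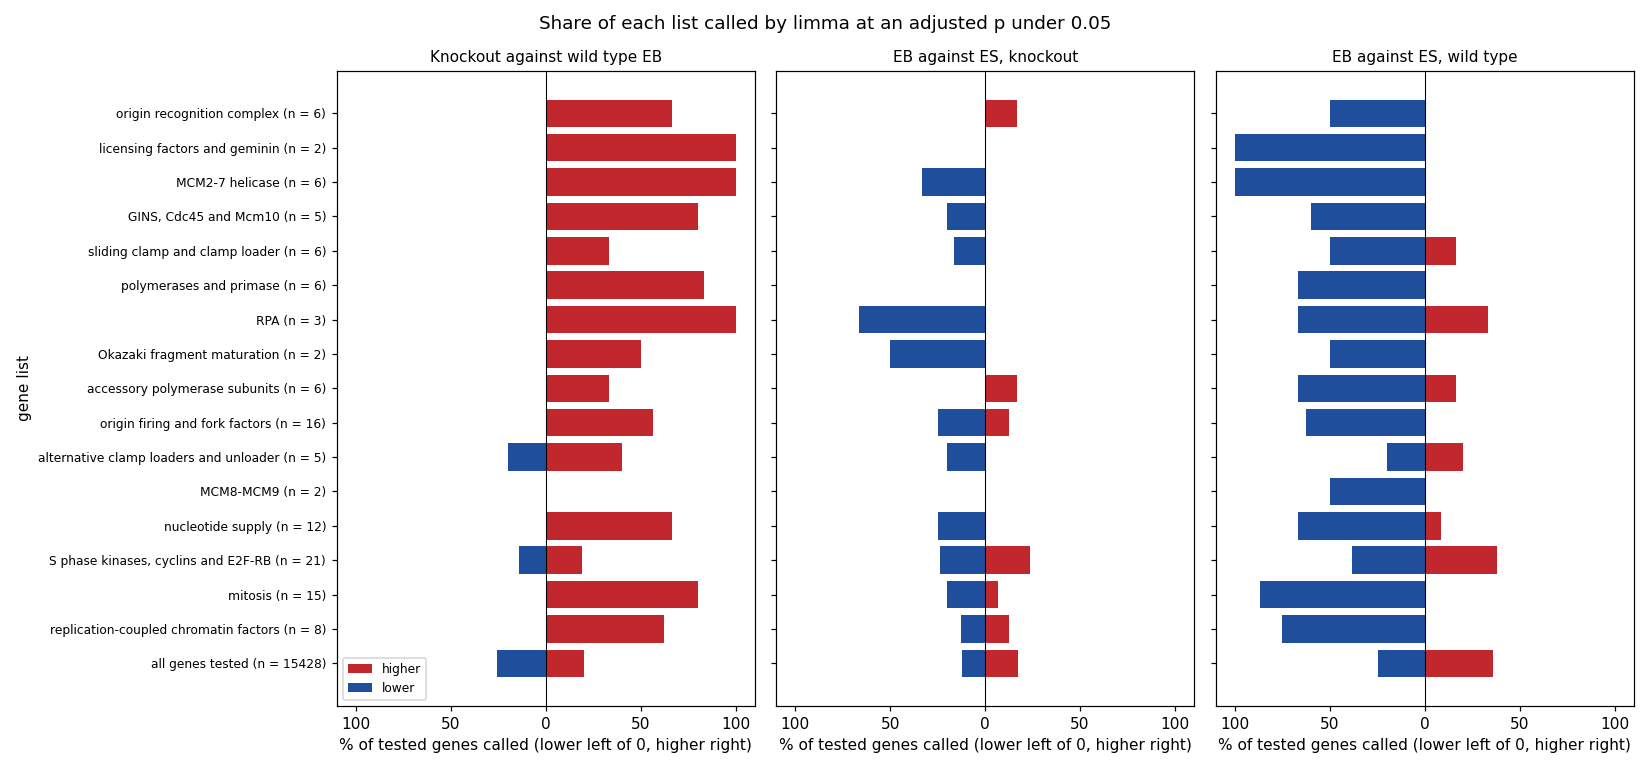
Percent of the tested genes of each list that limma called higher (right of 0) or lower (left of 0), for knockout against wild type EB, EB against ES in knockout, and EB against ES in wild type, with all 15428 tested genes in the bottom row. In the first panel all 6 MCM2-7 genes and all 3 RPA genes are higher, against 20.0% of all genes.

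At the replication genes H3K4me3, a mark of active promoters, differed little between genotypes. The deposited signal per gene was higher at long loci, with rank correlations across genes (Spearman's rho, over genes of 1 library) of 0.43 to 0.49 for H3K4me3 and 0.59 to 0.69 for H3K27me3, so levels are compared between genes only per kilobase of locus. With 1 library per group there is no test. The median log2 ratio of knockout over wild type EB was -0.03 over 38 members, against -0.08 over all genes. Ratios ran from -0.39 for Gins3 to 0.50 for Prim2, and 0 members differed by 2-fold or more, where 8.55% of all genes were higher and 3.24% lower. Orc1, with the largest RNA rise, had a signal of 19.9 in knockout EB, 18.8 in wild type EB, 26.1 in knockout ES and 25.3 in wild type ES. Rfc5, at the clamp loader, had 21.0 in knockout EB, 17.4 in wild type EB, 22.7 in knockout ES and 21.6 in wild type ES. Cdt1 had a signal of 26.0 in knockout EB, 29.2 in wild type EB, 24.1 in knockout ES and 27.1 in wild type ES, and Gins2 had 15.5 in knockout EB, 16.4 in wild type EB, 11.3 in knockout ES and 12.6 in wild type ES. In ES the median of knockout over wild type was 0.02, as over all genes, and 0 members differed by 2-fold, where 0.743% of all genes were higher and 0.318% lower.

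Between EB and ES the H3K4me3 signal was somewhat lower at the members. The median log2 ratio of EB over ES was -0.18 in knockout and -0.16 in wild type, against 0.00 and 0.03 over all genes. In knockout 0 members differed by 2-fold, where 1.35% of all genes were higher and 1.94% lower. In wild type, 2 members were at least 2-fold lower and 0 higher, where 10.9% and 9.28% of all genes were. These were Prim2, with 16.6 in wild type EB and 37.9 in wild type ES, and Pola1, with 9.28 in wild type EB and 20.8 in wild type ES. They have the longest loci of the list, of 215986 and 327389 bases. For the 9 members with loci over 40 kb the median ratio in wild type was -0.35, and for the other 27 with a known length it was -0.11. Over all genes the median was 0.08 for loci over 40 kb, 0.07 for loci of 10 to 40 kb and 0.00 for shorter ones. Per kilobase, H3K4me3 was above the median of all genes at 29 of 36 members in knockout EB, 31 in wild type EB, 32 in knockout ES and 32 in wild type ES.

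H3K27me3, the mark left by Polycomb repressive complex 2, was low at these genes. Per kilobase, 36 of 36 members lay below the median of all genes in knockout EB, 33 in wild type EB, 36 in knockout ES and 36 in wild type ES. The signal comes in steps, of 0.0400 in wild type EB and 0.0267 in the other 3 libraries, and 11 of 38 members had under 10 steps in at least 1 library. Pcna had 6 steps in knockout EB, 1 in wild type EB, 2 in knockout ES and 6 in wild type ES, while the long genes Prim2 and Pola1 had 190 to 389 and 95 to 213 steps. The median log2 ratio of knockout over wild type EB was -0.18, against 0.10 over all genes, and 2 members were at least 2-fold lower and 0 higher, where 6.72% and 5.82% of all genes were. These were Rfc4, with a signal of 0.187 in knockout EB and 0.600 in wild type EB, and Gins3, with 0.587 in knockout EB and 1.28 in wild type EB. Neither gene was called in RNA between these groups. Orc1, whose RNA was lowest in wild type EB, had 1.07 in knockout EB, 0.800 in wild type EB, 0.774 in knockout ES and 0.720 in wild type ES.

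In the remaining comparisons a few members passed 2-fold in H3K27me3, in each direction at a share near or below that of all genes. In ES the median of knockout over wild type was -0.07, against 0.00 over all genes. Cdt1 alone was at least 2-fold lower, with 2 steps in knockout ES and 10 in wild type ES. Of all genes 2.43% were lower and 1.14% higher by this measure. For EB over ES in knockout the median was 0.17, against 0.09 over all genes. Mcm2, Rfc2 and Rpa2 were at least 2-fold higher and Rfc3 lower, where 7.60% and 1.55% of all genes were. Mcm2 had 31 steps in knockout EB and 11 in knockout ES, Rfc2 had 31 in knockout EB and 12 in knockout ES, and Rpa2 had 16 in knockout EB and 4 in knockout ES. For EB over ES in wild type the median was 0.28, against -0.03 over all genes. Gins3, Gins4, Rfc4 and Fen1 were at least 2-fold higher and 0 lower, where 11.8% and 9.02% of all genes were. Fen1 had 9 steps in wild type EB and 2 in wild type ES, and Gins3 had a signal of 1.28 in wild type EB and 0.587 in wild type ES. Per kilobase Gins3 was the highest member in wild type EB, at percentile 60.9 of all genes.

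**Figure D4:**
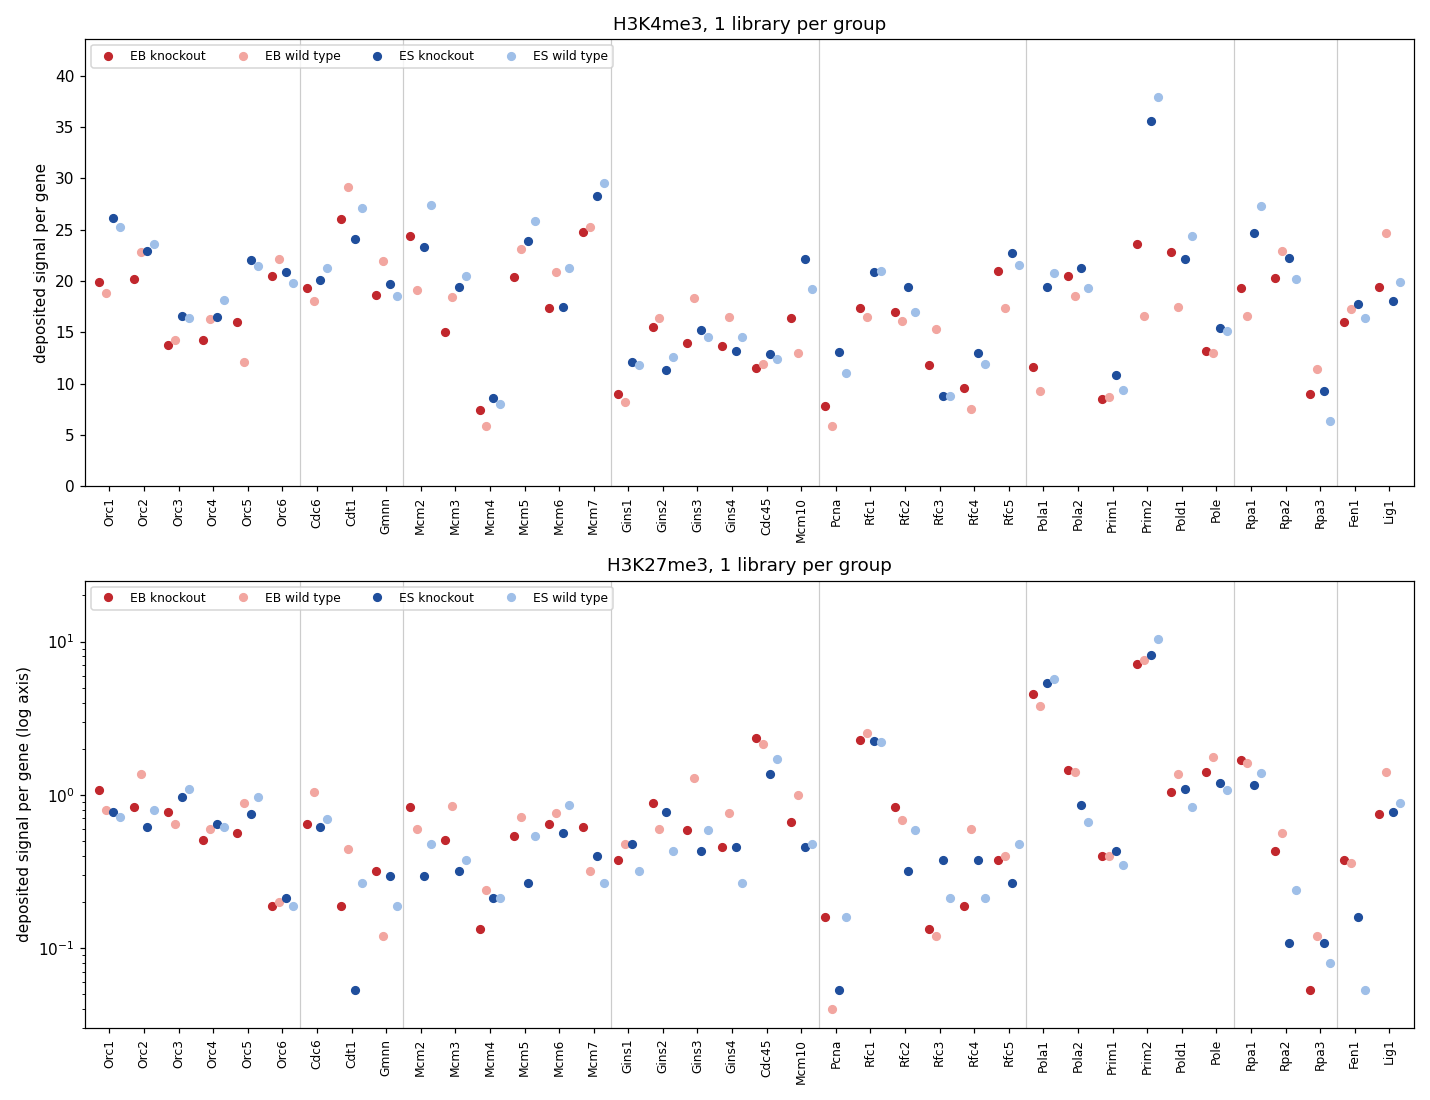
Deposited signal per gene for H3K4me3 (top, linear axis) and H3K27me3 (bottom, log axis) at the 38 replication genes, ordered by complex, with 1 library each of knockout EB, wild type EB, knockout ES and wild type ES. H3K4me3 lies between 5.82 and 37.9 in the 4 libraries, and most H3K27me3 values are low. The signal is not divided by locus length, and the largest H3K27me3 values are those of the long genes Prim2 and Pola1.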

How the data were processed

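Of 20 samples, 8 RNA-seq and 8 ChIP-seq libraries were used; 4 input libraries were not used. The authors deposited FPKM per gene and library, with Cufflinks column names per the file headers; 0 value columns were left unmapped. The submitters' processing notes name the mm10 build and, without saying what each was used for, DESeq2, HTSeq, Bowtie2, STAR 2.6.0a and Cufflinks 2.2.1. For each histone mark the deposited table gives 1 signal value per gene and library, named RPKM on promoters by the authors. The design had assumed RPKM on promoters, but the values rose with locus length, so they were treated as a signal summed per gene.

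Of 53560 RNA rows, 120 second entries of a symbol were left out (the one with the highest mean was kept). A gene entered the fit if 2 or more of 8 libraries reached 1 FPKM. The test was limma 3.58.1 (R 4.3.3) on log2(FPKM + 1), with 1 mean per group and eBayes with a trend; tests were two-sided, adjusted over 15428 genes in each of 5 contrasts. Fold changes on this scale understate those of low genes. The fit was also run on simulated data with larger changes than those of the members. That run does not show how well differences of the size seen in the members are called. ChIP ratios used log2 of signal plus 0.1. Lists, members and tests were chosen with earlier results of these data known. Values in every library are given for the members with the smallest and largest adjusted p of each complex in knockout against wild type EB and for members not called there; from other lists, up to 4 called genes with the smallest adjusted p are named. Genes that illustrate the other contrasts and the ChIP values were chosen after their values were seen. Promoter windows came from RefSeq (GRCm38.p6). Gmnn, Gins1, Gins2, Gins4, Prim2, Mcm4, Pole and Rfc2 had no match. Alternatives covered the pseudocount, filter, scaling, groups fitted, replicate block and leaving out each library.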

Additional observations from a re-analysis of the deposited data

Results flagged for a closer look

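In limma's test of the difference itself, the knockout effect differed between EB and ES for 21 replication genes, and in each it was larger in EB. The test took knockout minus wild type in EB, minus the same in ES (log2 scale, adjusted p under 0.05). It called 12.7% of all tested genes higher and 18.6% lower. At the origin the difference of the effects was 1.51 for Orc1, 1.26 for Orc5, 0.81 for Orc2, 0.74 for Cdc6 and 0.77 for Gmnn. Among MCM2-7 it was 0.84 for Mcm3, 0.83 for Mcm7, 0.71 for Mcm5, 0.69 for Mcm2 and 0.64 for Mcm6. For the helicase activators it was 1.20 for Mcm10, 0.75 for Gins1 and 0.44 for Gins4. For the clamp and its loader it was 1.42 for Rfc5 and 0.58 for Pcna. Among the polymerases it was 1.30 for Pola1, 1.19 for Pole, 0.72 for Pold1 and 0.55 for Prim1. It was 0.70 for Rpa1 and 0.69 for Lig1. Of these 21 calls, 11 were kept in all 8 fits that left out 1 library. The Gins4 call was lost in all 8. At the same FPKM total 15 of the 21 calls were kept, and those of Gmnn, Mcm6, Gins4, Pcna, Prim1 and Rpa1 were lost.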

How the results depend on the processing

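Alternatives were listed with earlier results of these data known. Leaving out each library in turn gave 14 to 27 members higher in knockout against wild type EB and 0 lower, 0 to 2 higher and 22 to 25 lower in wild type EB against ES, 0 to 1 higher and 2 to 6 lower in knockout EB against ES, 13 to 19 higher and 0 lower for the difference of the effects, and 0 either way in ES. With no filter on low FPKM, 18 were higher in knockout against wild type EB, 1 was higher in wild type EB against ES, 0 higher and 3 lower in knockout EB against ES, and 8 higher for the difference of the effects. At the same FPKM total, 18 were higher and 1 was lower in knockout against wild type EB and 11 lower in knockout EB against ES. After quantile normalization 1 was higher in wild type EB against ES, since the call of Rfc3 was lost. Orc6, Gins3, Cdc45, Prim2 and Fen1 were then called lower as well. With only the groups compared, 0 were higher and 3 lower in knockout EB against ES. The cause was not tested.

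Values of uncalled genes that changed sign in knockout against wild type EB were, at the same FPKM total, Orc4 at -0.04, Rfc1 at -0.00, Rfc2 at -0.11, Rfc4 at -0.07 and Fen1 at -0.03. Others were Gins3 at 0.04 after quantile normalization, Orc4 at -0.04 without EB knockout replicate 1 and Rfc2 at -0.05 without EB wild type replicate 2, with ranges over the left-out libraries of -0.04 to 0.37 for Orc4 and -0.05 to 0.25 for Rfc2. In wild type EB against ES, Gins3 was at 0.02 at the same FPKM total and 0.03 without ES wild type replicate 2 (range -0.18 to 0.03).

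The labels do not say that equal replicate numbers mark a shared culture or batch. Deviations of equally numbered libraries correlated at 0.068 to 0.311 across genes, with 2 pairs per contrast, so whether a batch was shared is not settled. With the replicate number as a block, 27 members were higher in knockout against wild type EB and 21 for the difference of the effects, with 0 lower in either. In ES 0 were called. In EB against ES, 2 were higher and 26 lower in wild type, and 1 higher and 7 lower in knockout. Equal totals hid changed calls: the block ended those of Gins4 for the difference of the effects and Rfc2 in knockout EB against ES, where 1 other member each was called instead, and added Cdc45 and Fen1 in wild type EB against ES.

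Median H3K27me3 log2 ratios of members with a pseudocount of 0.02, with one of 0.5 and relative to the median of all genes were -0.19, -0.13 and -0.28 for knockout over wild type EB, 0.18, 0.11 and 0.08 for EB over ES in knockout, and 0.32, 0.16 and 0.31 for EB over ES in wild type. For knockout over wild type ES they were -0.08 and -0.05 with these pseudocounts. For H3K4me3, relative to the median of all genes, they were 0.05 for knockout over wild type EB, 0.00 in ES and -0.19 for EB over ES in wild type, the last also -0.15 with a pseudocount of 0.5. Depth is unknown, and low H3K27me3 values rest on few steps.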
